A study of Rattus norvegicus with 4 samples.

Results

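Hmox1, Blvra and Blvrb of haem breakdown, the ferritin subunits Ftl1 and Fth1, the transferrin receptor Tfrc, and the iron sensors Ireb2 and Aco1 are described here in an alveolar macrophage line. These 8 genes were chosen by name from the 16581 genes measured, through array probes whose accession carries one of these symbols in a rat RefSeq gene table. They were read by 11 probes, since Blvra, Ftl1 and Fth1 each had 2. The cells were NR8383, a line that grew out of a lung lavage of a normal rat and grows partly attached and partly floating. All 4 cultures had been exposed for 4 h to NRCWE042, a carbon nanotube functionalized with COOH groups, at a dose of 6.8 cm2/cm2. They formed the 1 group available, and the unexposed cells that the study names were not analysed here. What follows is therefore the level of each gene in exposed cells and its spread between 4 replicate cultures, with no test and no effect of the nanotubes.

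Macrophages take up haem and iron when they clear aged red cells and debris. Haem oxygenase opens the haem ring and releases iron, carbon monoxide and biliverdin, and biliverdin reductases turn biliverdin into bilirubin. Free iron is stored in the shell of ferritin, built of light and heavy subunits, and the transferrin receptor brings more in. The iron regulatory proteins encoded by Aco1 and Ireb2 bind iron-responsive elements in ferritin and transferrin receptor messages when iron is low, which blocks ferritin translation and protects the receptor message from decay. Hmox1 and the ferritin genes are also known targets of the transcription factor encoded by Nfe2l2 and of its opponent encoded by Bach1.

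Each level below is the log2 of the processed spot signal minus the 75th percentile of all sample probes on the same array. A gene was called detected when a probe of it was marked well above background on all 4 arrays by the scanner software. By that mark 7 of the 8 genes were detected, beside 44.4% of all measured genes, and Ireb2 was the exception. No spot of these probes was saturated or marked as an outlier. Levels are not ranked between genes, because probes differ in how strongly they bind and shine. Each probe is followed between arrays, alone or as its difference from another probe of the same array, and the spread is that between cultures, labelling and hybridisation together. The 4 arrays shared 1 slide and 1 scan. The 75th percentile itself was 128, 131, 98.5 and 49.0 units of signal on replicates 1 to 4, and spike-in probes on replicate 4 lay at -0.20 relative to replicate 1 on the log2 scale. Replicate 4 thus stood apart in overall signal before any scaling, and spreads that moved most without it are also given without it. With 4 arrays the precision of every level is limited.

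The label of an alveolar macrophage was set against marker genes. Of 13 measured macrophage markers 11 were detected, or 84.6% beside 44.4% of all measured genes. Among them was Cd68 at 7.30, 7.26, 7.58 and 7.76 on replicates 1 to 4, and Marco and Adgre1 were detected on no array. Of 8 measured erythroid markers Hba-a1 and Epor were detected, and Klf1 was detected on 3 arrays. Hbb, Ahsp, Slc4a1, Gata1 and Alas2 were detected on no array. None of the 7 liver, 7 lung epithelial and 6 fibroblast markers measured was detected on all 4 arrays. In a whole culture, fewer cells of a type and less RNA per cell cannot be told apart.

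The stretches of 250 bases before the annotated start of Blvra and Tfrc are shown because these are the genes that were lower together on replicates 3 and 4 than on replicates 1 and 2, as described below. They come from RefSeq on the GRCr8 build, which gave such a stretch for 5 of the 8 genes, namely Blvra, Blvrb, Tfrc, Ireb2 and Aco1. The Blvra stretch is chr3:134802660-134802909 on the plus strand, and the Tfrc stretch is chr11:81690319-81690568 on the minus strand. Both are written 5′ to 3′ along the gene, and capitals mark matches on either strand to TGACNNNGC, the core of the antioxidant response element, or to TGACGT, part of the cyclic AMP response element.
Blvra: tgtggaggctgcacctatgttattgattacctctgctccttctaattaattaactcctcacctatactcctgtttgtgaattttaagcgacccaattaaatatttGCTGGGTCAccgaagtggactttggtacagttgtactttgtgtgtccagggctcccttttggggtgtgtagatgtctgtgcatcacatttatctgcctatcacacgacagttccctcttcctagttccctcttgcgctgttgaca
Tfrc: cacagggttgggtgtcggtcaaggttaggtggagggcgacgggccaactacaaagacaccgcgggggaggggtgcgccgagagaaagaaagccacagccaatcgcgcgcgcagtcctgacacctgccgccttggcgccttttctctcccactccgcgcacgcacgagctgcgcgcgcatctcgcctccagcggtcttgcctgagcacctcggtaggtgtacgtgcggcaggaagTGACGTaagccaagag
The Blvra match to TGACNNNGC reads on the reverse strand and begins 145 bases before the start. The Tfrc match to TGACGT begins 16 bases before the start. Among all 33469 such stretches in the rat table, 10.1% hold TGACNNNGC and 6.95% hold TGACGT. The motifs share the letters TGAC, and no match to one overlapped a match to the other in these stretches. The CCAAT box CCAAT was found in both stretches, 159 bases before the start of Blvra and 153 before that of Tfrc, and in 34.0% of all stretches. The GC box GGGCGG was found in neither, though it occurs before Blvrb, Aco1 and Ireb2 and in 30.5% of all. The motifs were picked after these sequences had been seen, and a match is a run of letters and not a shown binding site.

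Hmox1, the inducible haem oxygenase that does the first step of haem breakdown, was well above background in every culture. Its level was 6.85, 6.89, 7.16 and 7.37 on replicates 1 to 4, a mean of 7.07 ± 0.24 (SD, n = 4). Replicates 1 and 2 were the lower arrays and replicate 4 the highest, and highest and lowest differed 1.43-fold. That spread was ordinary for these arrays, since 47.8% of detected genes had a smaller SD. As processed signal before scaling, the same probe gave 14766, 15522, 14067 and 8095 units. On that scale replicate 4 was the lowest array, so the place of replicate 4 for Hmox1 depends on the scaling.

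Blvrb, the biliverdin reductase that also reduces flavins, followed Hmox1 closely. Its level was 5.83, 5.76, 6.09 and 6.31, a mean of 5.998 ± 0.252 (SD, n = 4), again with replicates 1 and 2 lower and replicate 4 highest. The difference between Hmox1 and Blvrb had an SD of 0.046 over the 4 arrays, the smallest of the 21 differences between detected members. It stayed between 0.023 and 0.076 under the alternatives tried, including each array left out in turn. The course itself was common among detected genes of like level. Those with a mean level of 6 to 8 had medians of -0.13, -0.14, 0.06 and 0.21 from their own mean on replicates 1 to 4. For a mean level of 4 to 6 the medians were -0.11, -0.13, 0.08 and 0.18.

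Blvra, the main biliverdin reductase of adult tissue, went the other way between arrays. Its brighter probe read 5.75, 5.69, 5.20 and 5.14, a mean of 5.45 ± 0.32 (SD, n = 4). Its second probe read 2.32, 2.36, 1.87 and 1.58, a mean of 2.03 ± 0.38 (SD, n = 4). With either probe replicates 3 and 4 lay below replicates 1 and 2 with no overlap, so both probes gave the same pattern although their brightness differed widely. The difference between Hmox1 and Blvra, which no scaling of a whole array can change, was 0.10, 0.85 and 1.12 larger on replicates 2, 3 and 4 than on replicate 1. The 3 genes of haem breakdown thus did not move as a block between cultures.

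**Figure D1:**
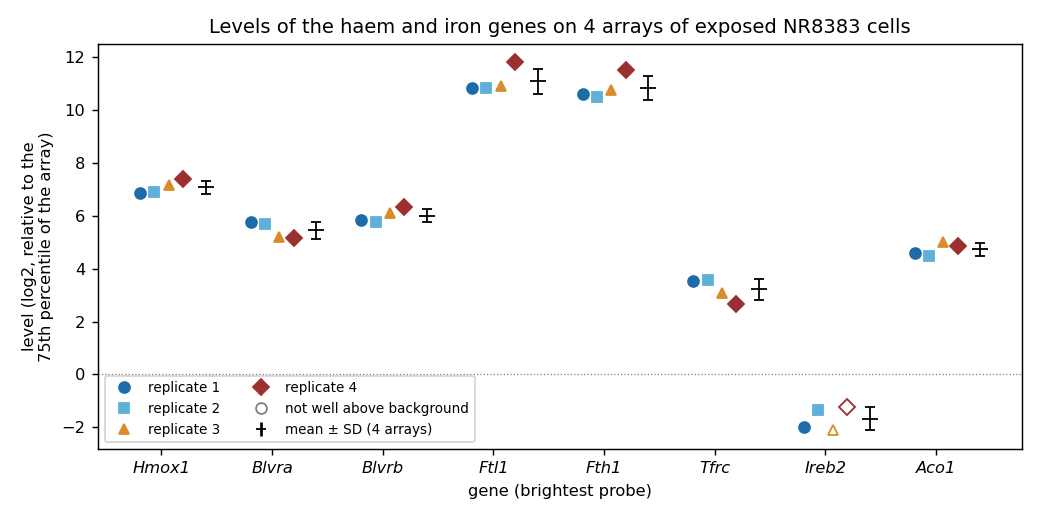
Level of each gene on each of the 4 arrays (y axis, log2 relative to the 75th percentile of the array; x axis, genes by their brightest probe), with the mean ± SD at the right of each group of points; open symbols are arrays where the probe was not well above background. Replicate 4 lies highest for Ftl1 at 11.78 and Fth1 at 11.49 and lowest for Tfrc at 2.68 and Blvra at 5.14, and Ireb2 has open symbols on replicates 3 and 4.

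The ferritin genes had the largest SDs of the detected members with this scaling. Ftl1, the light subunit that helps iron to mineralise in the shell, read 10.82, 10.81, 10.90 and 11.78, a mean of 11.08 ± 0.47 (SD, n = 4). Its second probe read 10.48, 10.37, 10.65 and 11.44, a mean of 10.74 ± 0.49 (SD, n = 4). Replicates 1 to 3 of the brighter probe lay between 10.81 and 10.90, and replicate 4 stood alone above them.

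Fth1, the heavy subunit that oxidises iron as it enters, had the same shape. It read 10.60, 10.46, 10.73 and 11.49 with its brighter probe, a mean of 10.82 ± 0.46 (SD, n = 4). Its second probe read 10.46, 10.38, 10.55 and 11.29, a mean of 10.67 ± 0.42 (SD, n = 4). All 4 ferritin probes were therefore highest on replicate 4, and the difference between Ftl1 and Fth1 had an SD of 0.078. Smaller SDs were found for 85.5% of detected genes in the case of Ftl1 and for 84.2% in the case of Fth1. Without replicate 4 the SD was 0.05 for Ftl1 and 0.13 for Fth1, so that one array set most of their spread.

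The high ferritin value on replicate 4 depended on the scale. As processed signal before scaling, the brighter Ftl1 probe gave 230428, 235212, 188332 and 172947 units and the brighter Fth1 probe 198128, 184666, 167086 and 141167 units. Replicate 4 was the dimmest array for both. Against replicate 1 the 4 ferritin probes on replicate 4 were between -0.41 and -0.55 on the log2 scale, while the 75th percentile of the array was at -1.38. Ferritin signal was thus less reduced than that of the array as a whole. Bright probes shared this to a smaller degree, as the 216 detected genes with a mean level over 8 had a median of 0.29 above their own mean on replicate 4, with quartiles of 0.09 and 0.49. Ftl1 was 0.71 and Fth1 0.67 above its own mean there, and 3.03% and 4.03% of detected genes were more positive. The part of signal level in this result was not tested.

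Tfrc, the receptor that takes up iron bound to transferrin, was lowest on replicate 4. Its level was 3.51, 3.56, 3.09 and 2.68, a mean of 3.21 ± 0.41 (SD, n = 4). Replicates 1 and 2 were alike and highest, replicate 3 was lower and replicate 4 lower still. The probe was printed in 2 spots on each array, and these differed by 0.12, 0.07, 0.01 and 0.05 on replicates 1 to 4. The highest and the lowest array differed 1.84-fold. Without replicate 4 the SD was 0.26. A rule for areas of low signal marked the Tfrc probe on replicates 1 and 2, and without those arrays the SD was 0.29 over the other 2. Before scaling, the Tfrc probe gave 1462, 1543, 837 and 314 units. Its signal was thus lowest on replicate 4 on either scale, and 97.4% of detected genes were more positive there than Tfrc.

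**Figure D2:**
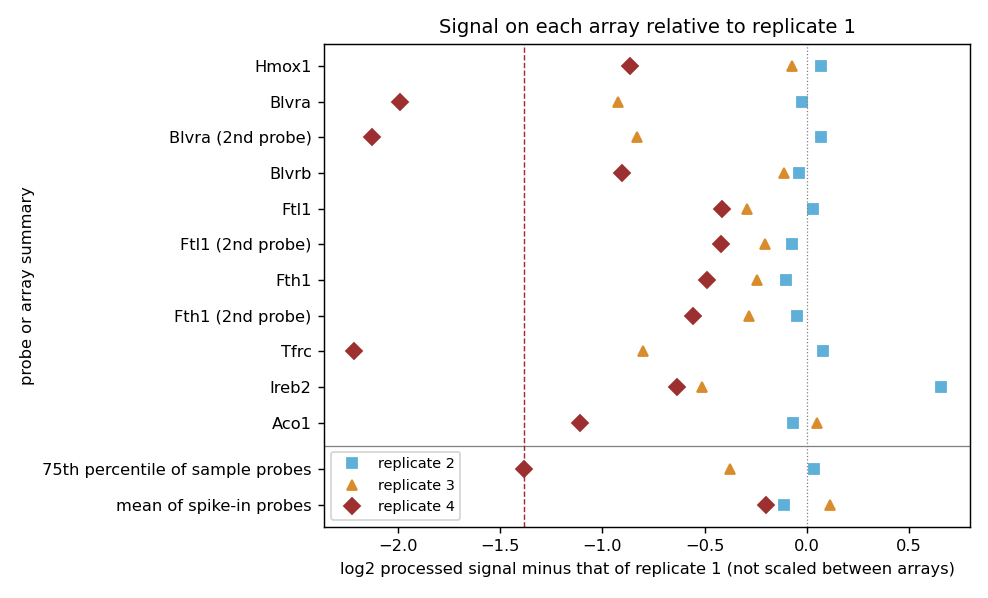
Processed signal of each probe on replicates 2, 3 and 4 minus that on replicate 1 (x axis, log2, not scaled between arrays; one line per probe), with the 75th percentile of sample probes and the mean of the spike-in probes under the line; the dashed line marks the 75th percentile of replicate 4 at -1.38. On replicate 4 the ferritin probes sit right of the dashed line at -0.41 to -0.55, and Tfrc at -2.22 and the Blvra probes at -1.99 and -2.13 sit left of it.

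The iron sensors were measured unequally. Aco1 encodes the cytosolic aconitase that becomes iron regulatory protein when it loses its iron-sulfur cluster. It read 4.58, 4.48, 5.01 and 4.86, a mean of 4.73 ± 0.24 (SD, n = 4). Replicates 3 and 4 lay above replicates 1 and 2, the reverse of Blvra and Tfrc, by no more than 1.44-fold between highest and lowest. That order did not hold with normexp background correction or with median or spike-in scaling, where replicate 4 was the lowest array. The rule for areas of low signal marked the Aco1 probe on replicates 1 and 2 too, and the SD over the other 2 arrays was 0.11.

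Ireb2 encodes the second iron regulatory protein, which is itself degraded when iron is plentiful. Its single probe gave processed signals of 32.6, 51.4, 22.8 and 21.0 units, or levels of -1.97, -1.35, -2.11 and -1.23. It was well above background on replicates 1 and 2 and not well above background on replicates 3 and 4. Its values on the last 2 arrays are weak readings rather than firm levels, and no difference between arrays is read from them. With the weaker mark of a signal that is positive and significant, Ireb2 was counted on all 4 arrays, as were 55.7% of all genes.

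Differences between genes on the same array do not depend on how an array is scaled as a whole, and they were taken for the 21 pairs of the 7 detected members. An SD under 0.2 was found for 5 pairs, or 23.8%, beside 19.0% of the pairs that these members form with all other detected genes. These were Hmox1 with Blvrb, Hmox1 with Aco1 at 0.16, Blvrb with Aco1 at 0.15, Ftl1 with Fth1, and Blvra with Tfrc at 0.16. Ftl1 with Fth1 was at 0.14 under quantile normalization, and Blvra with Tfrc at 0.26 under normexp and 0.065 without replicate 4. Without replicate 4, 10 pairs or 47.6% had an SD under 0.2, beside 40.4% for pairs with all other detected genes. The order of these shares was reversed under normexp, at 14.3% beside 21.6%, and without replicate 3, at 23.8% beside 25.3%. At the other end 10 pairs had an SD over 0.5, or 47.6% beside 30.8%, and without replicate 4 there were 2, or 9.52% beside 13.6%. With all 4 arrays each of the 10 held Blvra or Tfrc. The widest was Ftl1 with Tfrc at 0.86, closely followed by Fth1 with Tfrc. Over all 21 pairs the median SD was 0.43, beside 0.36 for these members paired with all other detected genes, and without replicate 4 it was 0.23 beside 0.24. That median was 0.310 beside 0.314 under quantile normalization and 0.377 beside 0.380 without replicate 3.

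The gap between ferritin and transferrin receptor opened on one array more than on the rest. The difference of Ftl1 minus Tfrc changed from that of replicate 1 by -0.05 on replicate 2, 0.51 on replicate 3 and 1.80 on replicate 4. For Fth1 minus Tfrc the changes were -0.18, 0.56 and 1.73. Without replicate 4 the SD was 0.31 for Ftl1 with Tfrc and 0.38 for Fth1 with Tfrc. Quantile normalization, which gives every array the same distribution of signals, brought these SDs to 0.48 and 0.56. The direction on replicate 4 was the same, with Tfrc below and both ferritin genes above their own mean. For Ftl1, though, replicate 2 at 0.12 was then close to replicate 4 at 0.13, so its high value was not particular to replicate 4. The difference of Hmox1 minus Tfrc, by contrast, kept an SD of 0.65 under quantile normalization and was 0.43 without replicate 4.

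**Figure D3:**
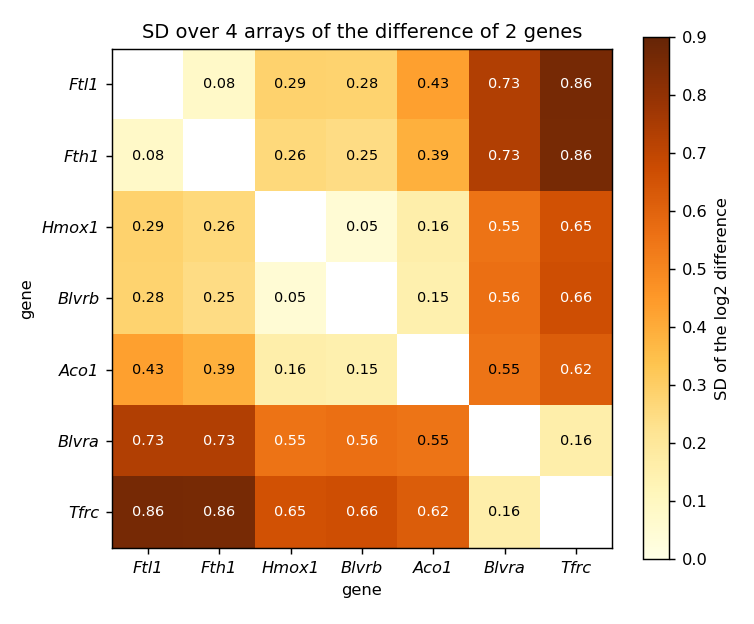
SD over the 4 arrays of the log2 difference between each 2 of the 7 detected genes (both axes list the genes; darker cells are larger SDs, and the number is the SD). Pale cells join Ftl1 with Fth1 at 0.08, Hmox1 with Blvrb at 0.05 and Blvra with Tfrc at 0.16, and the darkest cells at 0.86 join Tfrc with the ferritin genes.

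How far each gene stood from its own mean on replicate 4 was compared between 5 ways of processing. The median of all detected genes on that array was itself at 0.10 with the 75th percentile, -0.13 with normexp background correction, -0.35 with median scaling and -0.70 with spike-in scaling. Tfrc and Blvra were below their mean in all 5. Ftl1 and Fth1 were above it in 4 and at -0.10 and -0.13 with spike-in scaling. Hmox1, Blvrb and Aco1 were above it with the 75th percentile and with quantile normalization and below it in the other 3. Taken relative to the median of all detected genes, which removes the choice among the 75th percentile, median and spike-in scaling, replicate 4 stood at 0.61 for Ftl1, 0.57 for Fth1, 0.20 for Hmox1, 0.21 for Blvrb and 0.02 for Aco1. On the same relative scale Tfrc stood at -0.63 and Blvra at -0.40. Quantile normalization left 0.05 for Ftl1 and 0.15 for Fth1 on that scale, and -0.63 for Tfrc and -0.38 for Blvra.

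**Figure D4:**
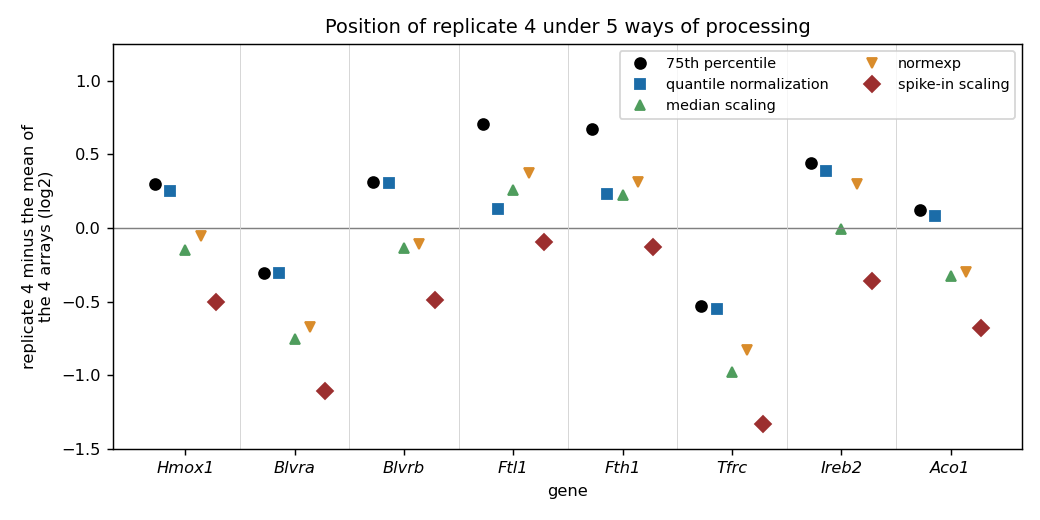
Replicate 4 minus the mean of the 4 arrays for each gene (y axis, log2; x axis, genes) under 5 ways of processing, one symbol each. Tfrc and Blvra lie below 0 in all 5, Ftl1 and Fth1 lie above 0 in all but spike-in scaling, and Hmox1, Blvrb and Aco1 change sign.

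The SD of the 7 detected members had a median of 0.32, beside 0.25 over all 7366 detected genes, and 5 of the 7 lay over that value. This order between members and all detected genes depended on the scaling. With spike-in scaling the median was 0.37 for the members beside 0.54 for all detected genes, with median scaling 0.23 beside 0.36, and with quantile normalization 0.22 beside 0.25. Without replicate 4 it was 0.18 beside 0.19.

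For each detected member, the other detected genes with the most similar course over the 4 arrays were looked up, as the smallest root-mean-square difference of levels after each gene's own mean was taken off. They were Pnkd and Lsm12 for Hmox1, at 0.009 and 0.012, and Ddt and Zgpat for Blvrb, at 0.007 and 0.009. For Blvra they were Tomm7 and Cab39l, at 0.013 and 0.016, and for Tfrc Lrrk2 and Hbs1l, at 0.010 and 0.016. For Ftl1 they were Actg1 and Mnt, at 0.026 and 0.036, and for Fth1 Krtap1-5 is given, at 0.043. For Aco1 they were C1h16orf54 and Idnk, at 0.007 and 0.019. With 4 arrays many genes share a course, as 3043 detected genes lay within 0.2 of Hmox1 and 1075 within 0.2 of Tfrc. Ftl1 had the fewest at 355.

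Around these 8 genes, 7 lists of haem and iron genes were read the same way. Of 81 listed genes 76 were measured and 51 of those, or 67.1%, were detected on all 4 arrays, beside 44.4% of all measured genes. Their median SD was 0.23, beside 0.25 over all detected genes. The SDs given for these lists are those of the 75th percentile scaling, and their order changed with other scalings. The levels are those of the brightest probe, and the mean of all probes was lower for some genes, as for Alad at 2.84. In haem synthesis 6 of 9 were detected. Alas1, the first and rate-limiting enzyme, averaged 6.81 ± 0.39 and Alad 5.01 ± 0.44, the largest SDs of that list, while Fech, which inserts the iron, averaged 2.77 ± 0.07 (SD, n = 4). Alas1 read 6.50, 6.46, 7.03 and 7.24, so with the 75th percentile scaling replicates 3 and 4 were above replicates 1 and 2, as for Hmox1. Alas2, the form used by red cell precursors, was detected on no array, Cpox on 2 and Uros on 3.

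Genes that bind or carry haem were detected for 6 of 10. Hebp1, a haem-binding protein, averaged 5.41 ± 0.04 and Pgrmc1, a membrane protein that binds haem, 2.36 ± 0.07. Slc48a1, which moves haem out of the phagolysosome, averaged 3.84 ± 0.26, and Flvcr2 -0.78 ± 0.37 (SD, n = 4). Cd163, the scavenger receptor for haemoglobin bound to haptoglobin, was detected on no array, nor were Hp and Hpx, which encode haptoglobin and haemopexin. The efflux transporter gene Abcg2 was detected on 1 array.

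Of 14 genes for iron entry, reduction and export, 5 were detected, or 35.7% beside 44.4% of all measured genes. These were Slc11a1, the iron and manganese transporter of the phagosome, at 4.30 ± 0.37, Slc11a2, its relative in endosomes, at 2.54 ± 0.23, and Slc39a8 at 2.36 ± 0.18 (SD, n = 4). The mitochondrial iron carriers Slc25a28 and Slc25a37 averaged 4.26 ± 0.47 and -0.10 ± 0.34. Slc40a1, which encodes the iron exporter ferroportin, was detected on no array with either of its 2 probes, and is named here after its value was seen.

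Among iron chaperones and genes of ferritin turnover, 3 of 5 were detected. Ncoa4, the receptor that takes ferritin to the lysosome, averaged 5.04 ± 0.12, Pcbp2, an iron chaperone, 4.71 ± 0.27, and Herc2, a ubiquitin ligase that acts on the Ncoa4 protein, -0.92 ± 0.29 (SD, n = 4). Ncoa4 read 5.05, 5.20, 4.94 and 4.97 and did not share the high value of ferritin on replicate 4. Ftmt, which encodes mitochondrial ferritin, was detected on 3 arrays and Prom2 on none.

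Iron-sulfur cluster assembly was the most fully detected of the lists, at 12 of 13. The scaffold gene Iscu averaged 4.20 ± 0.05 and the cysteine desulfurase gene Nfs1 1.95 ± 0.06, while Nubp1 and the co-chaperone gene Hscb had the largest SDs at 4.06 ± 0.33 and 2.83 ± 0.33 (SD, n = 4).

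Of the iron sensing and hepcidin list 8 of 12 were detected. Hfe averaged 2.16 ± 0.08 and Tfr2, the second transferrin receptor, 1.09 ± 0.46 (SD, n = 4). Each had 2 probes that differed in level, and the mean of its probes was 1.02 for Hfe and -0.75 for Tfr2. Tmprss6, a protease that restrains hepcidin in liver, read -0.33, -0.44, -0.56 and 0.82 and was thus highest on replicate 4 with this scaling. Hamp, Hjv, Bmp6 and Tf, which encode hepcidin, hemojuvelin, a bone morphogenetic protein and transferrin, were detected on no array.

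In the list of Hmox1 control 11 of 13 were detected. Nfe2l2, whose protein activates Hmox1, read 4.65, 4.73, 4.57 and 4.52, a mean of 4.62 ± 0.09, and Txnrd1, another of its targets, averaged 1.63 ± 0.13 (SD, n = 4). The small Maf partners had the largest SDs with this scaling, with Maff at 3.29 ± 0.44 and Mafg at 3.64 ± 0.62. With spike-in scaling the SDs were 0.18 for Maff and 0.20 for Mafg beside 0.69 for Nfe2l2 and 0.71 for Txnrd1. Mafg read 3.13, 3.09, 4.03 and 4.30, again with replicates 3 and 4 above replicates 1 and 2. Gclm, a glutathione synthesis gene, was detected on no array. Mafk was detected on 3, and its probe lay in an area of low signal on 1 array by a rule from bright spots alone. That rule was chosen after seeing the data and is not the one given for Tfrc and Aco1.

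**Figure D5:**
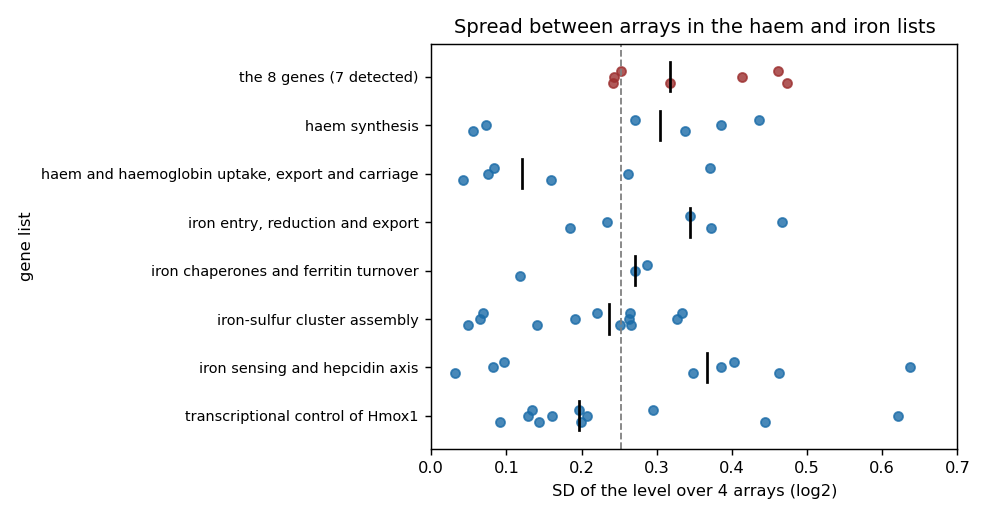
SD of the level over the 4 arrays (x axis, log2) for each detected gene of the 8 described here (top line) and of the 7 surrounding lists (y axis); black bars are medians within a list and the dashed line is the median of all detected genes at 0.25. Members spread from 0.24 to 0.47, and Tmprss6 at 0.64 has the largest SD of the iron sensing list.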

How the data were processed

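RNA of 4 NR8383 cultures (100 ng each, after 20 passages and 48 h of seeding, per the labels' protocols) was labelled with Cy3 and read on 1-colour arrays. The authors deposited linear spot intensities, made with Agilent Feature Extraction 11.0.1.1, per the file headers and the submitters' processing notes. The processed intensity is background-subtracted and spatially detrended within an array and not normalized between arrays, per the file headers.

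Here log2 was taken, outlier-marked and control spots were left out, spots of a probe were averaged, and the 75th percentile of sample probes of each array was subtracted. Of 45598 probes 21109 were named by accession through a RefSeq table of the GRCr8 build, while the array design names an older build. The brightest probe stood for a gene. Detection used the software's mark on over 50% of the spots of at least 1 probe of the gene, on each of the 4 arrays. Named genes outside the 8 were, per list, those against the majority for detection and the 2 detected genes with the largest and the 2 with the smallest SD; the genes closest in course to each member were added. Members and lists were chosen with earlier results of these data known. With 1 group there was no test. Alternatives were normexp background correction (limma 3.58.1 in R 4.3.3, offset 50), spike-in, median and quantile scaling, other probe and detection rules, areas of low signal left out, and each array left out. Python 3.11.15, numpy 2.4.6 and pandas 2.3.3 were used. Steps were tested on simulated data. A few genes that the rule names are not reported here.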

Additional observations from a re-analysis of the deposited data

Results flagged for a closer look

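Of 36 genes examined, 2 had 1 array far from the other 3 on the scaled levels given above. The 36 were the 8 members and 28 detected genes of the surrounding lists named in the text. Chance alone puts about 1 in 20 groups past this limit, so 2 of 36 is near the share expected by chance. Some listed genes were named for a large or small SD in these data, and all genes share the same 4 arrays. The share of 1 in 20 is thus only a rough guide. For Ftl1 the gap between replicate 4 and the nearest array took 0.908 of the whole range over the 4 arrays, past the limit set for such a gap. Fth1, with the same shape, was under that limit at 0.742. For Tmprss6 the gap below replicate 4 took 0.836 of the range. The SD of Tmprss6 was 0.64 on the scaled levels given above and 0.65 with quantile normalization. It was smaller with spike-in scaling at 0.36, median scaling at 0.35 and normexp at 0.27. Whether the gap for Tmprss6 stayed past the limit with these alternatives was not tested. The place of replicate 4 for Ftl1 depended on the scaling. With quantile normalization Ftl1 was 0.12 above its own mean on replicate 2 and 0.13 above it on replicate 4. With spike-in scaling it was at -0.10 on replicate 4, below replicate 1 at 0.12 and replicate 2 at 0.26.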

How the results depend on the processing

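The number of members detected was 7 under every alternative except the positive and significant mark, which gave 8, while the share of all genes ran from 38.6 to 55.7%. The median SD over the members lay between 0.177 (without replicate 4) and 0.335 when 1 array was left out, and the median SD of differences between members between 0.230 (without replicate 4) and 0.528. Normexp on the spot median, added after seeing that the files used here hold no mean signal column, gave levels of 6.22 for Hmox1, 4.52 for Blvra, 5.12 for Blvrb, 10.3 for Ftl1, 10.1 for Fth1, 2.53 for Tfrc, -0.756 for Ireb2 and 3.91 for Aco1. The planned version on the spot mean was not run. The mean of all probes put Blvra at 3.74, because its second probe is dimmer. Spike-in scaling took the SD to 0.90 for Blvra and 1.01 for Tfrc, and to 0.24 for Ftl1 and 0.19 for Fth1. Leaving out areas of low signal by the planned rule, which marked 37.1% and 34.8% of the spots of replicates 1 and 2, took the SD of Aco1 to 0.11 and that of Tfrc to 0.29. A rule from bright spots alone, chosen after seeing the data, marked at most 3.62% of the spots of an array and none of these probes. No paired analysis was possible because there was 1 group. Signal over background limits Ireb2, and the number of arrays limits every SD.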
